A study of Danio rerio with 8 samples.

Results

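The genes described here belong to the 4 classical families of guidance signals and their receptors: semaphorins with plexins and neuropilins, ephrins with Eph receptors, Slits with Robo receptors, and netrins with Unc5 receptors. They were chosen by symbol alone, as zebrafish genes whose name starts with sema, plxn, nrp1, nrp2, epha, ephb, efna, efnb, robo, slit, ntn or unc5, with ephb4b left out. The gene table used for naming held 112 such symbols, and 47 of them had a probe among the 10536 genes named on the array. Of these 47 genes, 38 were called well above background on 4 or more of the 8 arrays and were tested, and 9 were not. The prefixes also catch some genes outside the families: unc50, which encodes a protein of intracellular trafficking and was measured, the netrin-G gene ntng2a, and 7 Slitrk genes, none of which had a named probe.

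RNA came from larval zebrafish hearts at 4 days post-fertilization. In the sorafenib group, larvae had been kept in 1 uM sorafenib, an inhibitor of RAF and of several receptor tyrosine kinases including the VEGF receptors, between 72 and 96 hours post-fertilization. In the control group, larvae had received the vehicle over the same hours; no genetic change is named for either group, and the sources used here do not give the strain, the vehicle or the number of hearts behind each sample. Each group had 4 samples, which the design text calls independent experiments, and each was hybridised to a one-colour Agilent array.

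Guidance signals steer growing axons by attraction and repulsion, and the same ligands and receptors act on endothelial cells and on cells of the forming heart. Semaphorins bind plexins, the secreted class 3 members usually through neuropilins, which are also co-receptors for VEGF. Ephrins and Eph receptors both sit in the membrane and signal on cell contact in both directions, Slits repel through Robo receptors, and netrins attract through Dcc and repel through Unc5 receptors.

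On each array between 54.98% and 59.54% of spots were well above background. Arrays of the same group correlated at r = 0.965 to 0.984 over probes, and arrays of the 2 groups at r = 0.966 to 0.986. Of 23 listed heart muscle genes 16 were tested, and 15 of these were above background on all 8 arrays, so markers of the labelled tissue were present. Neuronal genes were detected as widely, with 34 of 49 tested and 32 of them above background on all 8 arrays, and 15 of 29 genes of liver, yolk and gut were tested. The mean neuronal marker level, centred on all arrays, was 0.22, -0.76, -1.08 and 0.35 on the sorafenib arrays 1 to 4, against 0.31, -0.0037, 0.45 and 0.52 on the control arrays (log2). Sorafenib replicates 2 and 3 thus stood below the other arrays in neuronal markers, and every guidance gene whose levels are listed array by array below is also given without both of them.

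No guidance gene passed the test after adjustment over all transcripts. Levels below are log2 processed signals from which each array's own 75th percentile was subtracted, so a value of 0 means a spot as bright as that percentile, and a difference of 1 is a doubling. In limma over 21524 units (the brightest probe of each named gene, and each unnamed probe), 0 of the 38 genes reached an adjusted p under 0.05, as did 0% of all units, and the smallest adjusted p among the genes was 0.583. At an unadjusted p under 0.05, 3 genes were lower in sorafenib hearts (nrp1b, efnb2b and robo3), or 7.89% of the 38, beside 3.28% of all units. One gene, sema4e, was higher at that level, or 2.63%, beside 4.16% of all units. The log2 fold change was negative for 24 of the 38 genes, or 63.2%, beside 51.8% of all units. The median log2 fold change was -0.09 over the genes and -0.02 over all units.

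**Figure D1:**
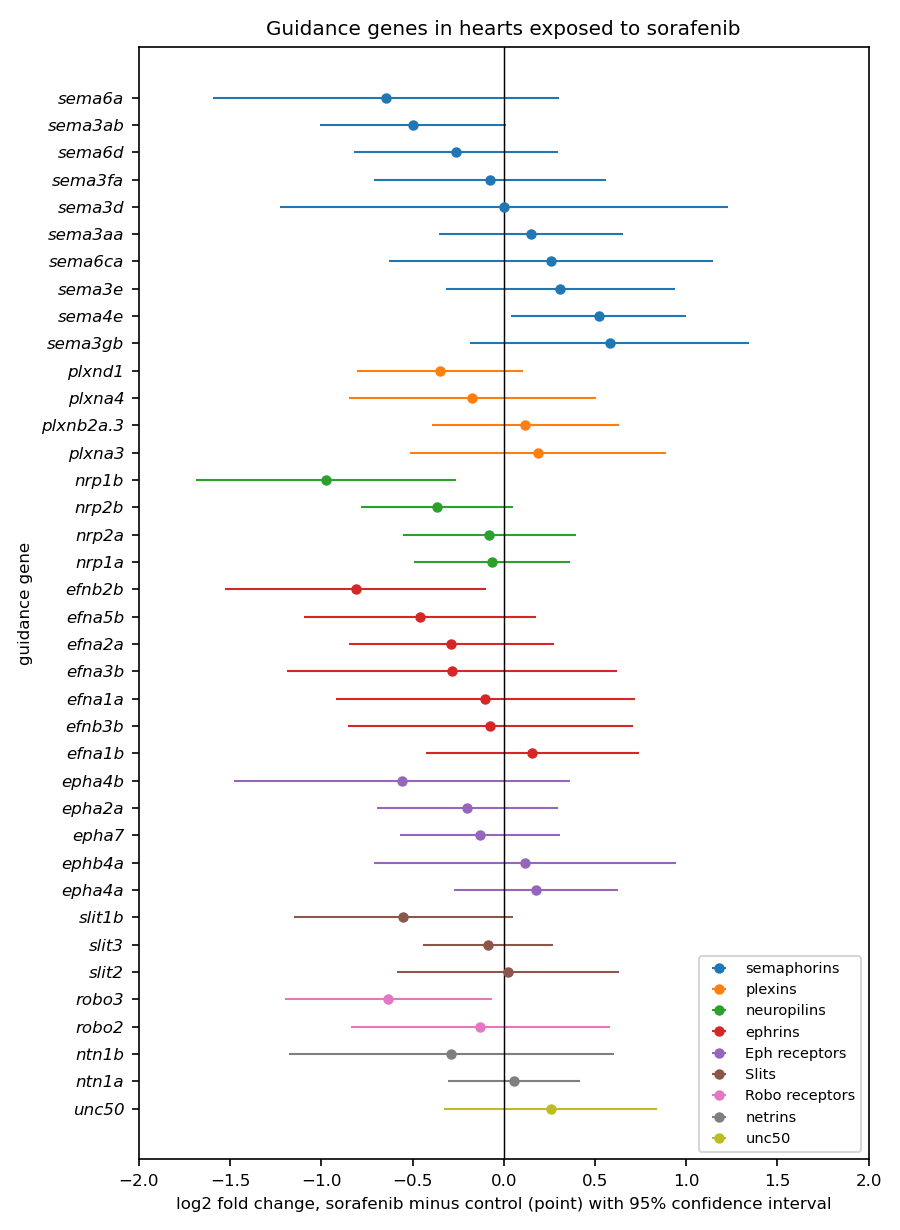
Log2 fold change of sorafenib over control hearts for the 38 tested genes, grouped by family; points are estimates and bars 95% confidence intervals from limma. The intervals of nrp1b, efnb2b and robo3 lie below 0 and that of sema4e above 0, and the intervals of the other 34 genes include 0.

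Among the semaphorins, 10 of 12 genes with a probe were tested, 4 with a negative and 6 with a positive log2 fold change, and their median was 0.07. The membrane-bound sema4e, a repellent of motor axons in zebrafish, was at 1.57, 1.39, 1.55 and 1.23 on the sorafenib arrays, against 1.41, 0.51, 0.85 and 0.90 on the control arrays. Control replicate 1 lay inside the sorafenib range, and the other control arrays lay below it. Its log2 fold change was 0.52 ± 0.21 (SE, n = 4 each), with a limma p of 0.0362 and an adjusted p of 0.656. The value was 0.52 within each of the slides, on which the groups were balanced (replicates 1 and 2 on slide 1, 3 and 4 on slide 2).

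Left out singly, control replicate 2, 3 or 4 or sorafenib replicate 1, 2 or 3 took the limma p of sema4e above 0.05, with log2 fold changes of 0.38 to 0.54. Without both sorafenib replicates 2 and 3 it was 0.49 (limma p 0.131).

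The secreted class 3 semaphorins had log2 fold changes of both signs. The level of sema3ab was -3.59, -4.26, -4.16 and -4.15 on the sorafenib arrays, against -3.48, -3.12, -3.88 and -3.68 on the control arrays. These levels were near the limit of detection, as the lowest signal called well above background was -4.73 to -4.20 on the sorafenib arrays. Only sorafenib replicate 1 reached the control range, and the log2 fold change was -0.50 ± 0.23 (95% confidence interval -1.01 to 0.01). It was -0.65 (limma p 0.0165) without sorafenib replicate 1, -0.61 (limma p 0.0343) without control replicate 3 and -0.33 (limma p 0.291) without both sorafenib replicates 2 and 3. With a normexp background correction, which compresses dim signals, it was 0.04 with 75th percentile scaling and -0.04 with quantile normalisation. Leaving out the array of a group that goes most against a difference enlarges it by construction, here and for the genes below. A p from such a fit is no support for the difference. Leaving out the lowest sorafenib arrays of a gene with a negative log2 fold change likewise shrinks the difference by construction. The cause of such a loss was not tested. For sema3e, a ligand that binds plexin D1 directly in mouse, the log2 fold change was 0.31 ± 0.28 with an interval of -0.32 to 0.94, and without control replicate 2 it was 0.56 (limma p 0.0393). For sema3d the log2 fold change was 0.0011 ± 0.55, and its interval of -1.23 to 1.23 spans more than a doubling either way.

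That width came from both groups: sema3d was at -1.54, -2.21, -1.89 and -3.25 on the sorafenib arrays, against -0.84, -2.47, -2.10 and -3.48 on the control arrays, with replicate 1 highest and replicate 4 lowest in each. Without both sorafenib replicates 2 and 3 its log2 fold change was -0.17. The dim sema3gb, above background on 7 arrays, had the most positive fitted value of the 38 genes, 0.58 ± 0.34 (interval -0.18 to 1.35). The remaining class 3 genes, sema3aa and sema3fa, had log2 fold changes of 0.15 and -0.08.

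The class 6 semaphorins are membrane-bound ligands of A-type plexins. The level of sema6a was -0.12, -0.62, -1.37 and 0.65 on the sorafenib arrays, against -0.24, -0.08, 0.77 and 0.66 on the control arrays. The groups overlapped, with sorafenib replicates 2 and 3 below every control array, and the log2 fold change was -0.64 ± 0.42 (interval -1.59 to 0.31). Without both of those arrays it was -0.01, without sorafenib replicate 4 it was -0.98 (limma p 0.0248), and with array weights it was -1.02 (limma p 0.0153). Replicate 4 was the highest sorafenib array, so leaving it out enlarges the difference by construction. Replicates 2 and 3 were the lowest sorafenib arrays, so leaving both out shrinks it by construction. At an unadjusted limma p under 0.05, 8.6% of all units were lower without replicate 4 and 11.3% with array weights, beside 3.28% in the main fit. For sema6d the log2 fold change was -0.26 ± 0.25 (interval -0.82 to 0.30), and for sema6ca it was 0.26 ± 0.39, with 0.06 and 0.0033 on the other probes of that gene.

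The plexins are the signalling receptors of semaphorins, and all 4 genes with a probe were tested, with a median of -0.03. The endothelial receptor plxnd1, which restrains vessel sprouting in zebrafish, was at 3.70, 4.08, 4.29 and 3.55 on the sorafenib arrays, against 4.15, 4.2, 4.47 and 4.2 on the control arrays. Sorafenib replicate 3 alone reached the control range. Its log2 fold change of -0.35 ± 0.20 had an interval of -0.81 to 0.11 and an adjusted limma p of 0.677. Without that array the value was -0.48 (limma p 0.0425), and without both sorafenib replicates 2 and 3 it was -0.63 (limma p 0.0187). Sorafenib replicates 2 and 3 were the highest sorafenib arrays for plxnd1, so both fits enlarge the difference by construction. With all arrays, the limma p was under 0.05 on the authors' series table (-0.39, p 0.0345) and with normexp and quantile normalisation (-0.34, p 0.0261). It was not with quantile normalisation alone (0.0541) or scaling to the array median (0.272). The smallest adjusted limma p of plxnd1 under any alternative was 0.38. For plxna3, plxna4 and plxnb2a.3 the log2 fold changes were 0.19, -0.17 and 0.12, the first from a probe above background on 4 arrays.

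Markers of endothelium and endocardium were mostly negative in log2 fold change as well. Of 40 listed genes 21 were tested, 19 had a negative log2 fold change, and their median was -0.43. At an unadjusted limma p under 0.05, 10 of them were lower and 0 higher, beside 3.28% and 4.16% of all units, and 0 passed adjustment. This list, like the other lists used here, was chosen with earlier results of these data known, so the count only describes it. The mean marker level was between -0.35 and -0.12 on the sorafenib arrays and between 0.07 and 0.31 on the control arrays (log2, centred), so the groups did not overlap. Within the sorafenib group plxnd1 was highest on replicate 3, the array with the lowest mean marker level. Single markers differed there: erg (1.41) and clec14a (2.82) were at their highest of the sorafenib arrays, and esm1 (-2.88) at its lowest. The markers' part in the values of plxnd1, the neuropilins and the ephrins was not tested. In whole-heart RNA, fewer cells of a type and less RNA per cell cannot be told apart.

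All 4 neuropilins were tested and had a negative log2 fold change, with a median of -0.22. The sign of each was the same under the other scalings and backgrounds tried. Under all the alternatives listed below, nrp1b and nrp2b stayed negative, while nrp1a and nrp2a, both close to 0, reached 0.04 and 0.12. The level of nrp1b, a co-receptor of class 3 semaphorins and VEGF, was -4.08, -3.59, -3.83 and -4.34 on the sorafenib arrays, against -3.84, -2.49, -2.53 and -3.08 on the control arrays. Control replicate 1 lay within the sorafenib range and the other control arrays above it. Group means were -3.96 ± 0.33 and -2.99 ± 0.63 in sorafenib and control hearts (SD, n = 4 each). The difference was a log2 fold change of -0.97 ± 0.32, or 0.509-fold, with a limma p of 0.0127 and an adjusted p of 0.583.

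This gene was near the limit of detection: the lowest signal called well above background was between -4.73 and -4.2 on the sorafenib arrays and between -4.84 and -4.30 on the control arrays. Its other probe was above background on 0 arrays. With a normexp background correction, whose offset of 50 compresses dim signals, the log2 fold change of nrp1b was -0.16 with scaling to the 75th percentile (limma p 0.284) and -0.21 with quantile normalisation (limma p 0.0305), and on the authors' deposited series table, where this probe is mostly at the table's lowest value, it was -0.02. Sorafenib replicates 2 and 3 were the highest sorafenib arrays for nrp1b, so leaving both out enlarges the difference by construction. Without them the log2 fold change was -1.23 (limma p 0.0157), and within slides 1 and 2 it was -0.67 and -1.28. With each array left out in turn it was between -1.26 and -0.81, with a limma p of at most 0.04.

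The level of nrp2b was 3.85, 3.25, 3.70 and 3.33 on the sorafenib arrays, against 3.77, 3.98, 3.99 and 3.85 on the control arrays. Only sorafenib replicate 1 overlapped the control arrays. Without it, which enlarges the difference by construction, the log2 fold change was -0.47 (limma p 0.0356), while without both replicates 2 and 3 it was -0.31. With all arrays it was -0.36 ± 0.18 with an interval of -0.78 to 0.05, and the other probes of the gene gave -0.15 and -0.42. Under 6 of 22 alternatives the limma p of nrp2b was under 0.05, as with quantile normalisation (0.0342) and both normexp fits (0.0186 and 0.0189). Under the others it was not, as with scaling to the array median (0.178) and the mean of the gene's probes (0.214). The smallest adjusted limma p of nrp2b under any alternative was 0.159. For nrp1a and nrp2a the log2 fold changes were -0.07 (interval -0.49 to 0.36) and -0.08 (interval -0.55 to 0.39).

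**Figure D2:**
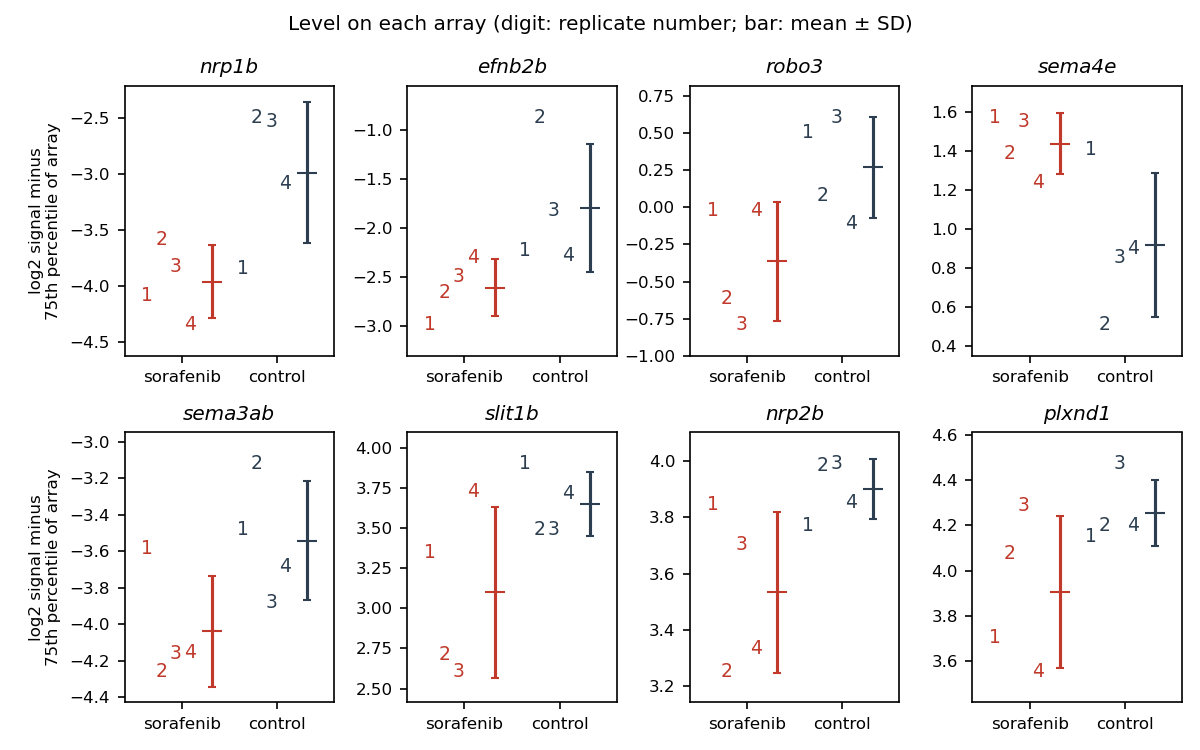
Level of 8 guidance genes on each array, in log2 processed signal minus the array's 75th percentile; digits are replicate numbers, and the bar beside them is the mean ± SD of 4 arrays. In efnb2b all 4 sorafenib values lie below all 4 control values, while in the other genes at least 1 array lies within the range of the other group.

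Ephrins are the membrane-bound ligands of Eph receptors. Of 10 genes with a probe 7 were tested, 6 with a negative and 1 with a positive log2 fold change, and their median was -0.28. The level of efnb2b, a copy of the gene that marks arterial endothelium in mouse, was -2.98, -2.65, -2.50 and -2.30 on the sorafenib arrays, against -2.22, -0.87, -1.82 and -2.28 on the control arrays. All sorafenib values were below all control values, with the highest sorafenib and the lowest control value close together; among all units 1.9% had the groups apart in this direction, and efnb2b was the 1 guidance gene that did, while 0 guidance genes, beside 2.27% of all units, had them apart upward. Its log2 fold change was -0.81 ± 0.32, or 0.57-fold, with a limma p of 0.0305 and an adjusted p of 0.656.

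The size of that difference varied with control replicate 2. Within slide 1, which holds that array, the log2 fold change of efnb2b was -1.27, and it was -0.35 within slide 2. It was between -0.97 and -0.50 when each array was left out in turn, with limma p between 0.0191 and 0.0795: it was -0.50 without control replicate 2, and the p was also above 0.05 without control replicate 3 (-0.82) and without sorafenib replicate 1 (-0.68) or 2 (-0.80). Without both sorafenib replicates 2 and 3 it was -0.84 (limma p 0.0877). With normexp it was -0.15 with scaling to the 75th percentile and -0.21 with quantile normalisation.

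The A-type ephrins are anchored to the membrane by a lipid. The dim efna5b, detected on 1 sorafenib array and 4 control arrays, had a log2 fold change of -0.46 ± 0.28 (interval -1.10 to 0.18), and it passed the filter only through its control arrays. For efna2a it was -0.29 ± 0.25, for efna3b -0.28 ± 0.40 and for efna1a -0.10 ± 0.36. The single positive value was that of efna1b, 0.16 ± 0.26. The B-type efnb3b had a log2 fold change of -0.07 ± 0.35.

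All 5 Eph receptors with a probe were tested, 3 with a negative and 2 with a positive log2 fold change. The level of epha4b, a receptor for ephrins of both types, was 0.85, 0.68, 0.17 and 2.25 on the sorafenib arrays, against 1.29, 1.30, 1.52 and 2.07 on the control arrays. Sorafenib replicate 4 was the highest of all 8 arrays and the other sorafenib arrays were the lowest, so the log2 fold change of -0.56 ± 0.41 had an interval of -1.48 to 0.36. Without that array it was -0.98 (limma p 0.00463), and without both sorafenib replicates 2 and 3 it was 0.0015 (limma p 0.997). The first of these fits leaves out the array that goes against the difference, which enlarges it by construction. The other leaves out the lowest sorafenib arrays, which shrinks it by construction. Without sorafenib replicate 4, 8.6% of all units were lower at an unadjusted limma p under 0.05, beside 3.28% with all arrays. The venous receptor ephb4a was at -0.95, -0.97, -1.71 and 0.19 on the sorafenib arrays, against -0.79, -0.82, -1.46 and -0.85 on the control arrays.

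Replicate 3 was the lowest of ephb4a in each group, and sorafenib replicate 4 was again the highest of all. For ephb4a the log2 fold change was 0.12 ± 0.37 with an interval of -0.71 to 0.95, and it was 0.60 (limma p 0.141) without both sorafenib replicates 2 and 3. For epha2a, epha4a and epha7 the log2 fold changes were -0.20, 0.18 and -0.13, and all 3 intervals included 0.

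Slits are secreted ligands of Robo receptors, and 3 of 4 were tested. The level of slit1b was 3.35, 2.71, 2.61 and 3.73 on the sorafenib arrays, against 3.90, 3.49, 3.49 and 3.72 on the control arrays. Sorafenib replicates 1, 2 and 3 were below every control array and replicate 4 was inside the control range. The log2 fold change was -0.55 ± 0.27 (interval -1.15 to 0.05), while it was -0.11 without both replicates 2 and 3 and -0.76 without replicate 4 (limma p 0.00934). Replicate 4 was the highest sorafenib array, so leaving it out enlarges the difference by construction. Replicates 2 and 3 were the lowest, so leaving both out shrinks it by construction. Without replicate 4, 8.6% of all units were lower at an unadjusted limma p under 0.05. For slit2 and slit3 the log2 fold changes were 0.02 ± 0.27 and -0.09 ± 0.16, and the interval of slit3, -0.45 to 0.27, was the narrowest of the 38 genes.

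Both Robo receptors with a probe were tested. The level of robo3, which in zebrafish lets axons cross the midline, was -0.02, -0.62, -0.79 and -0.02 on the sorafenib arrays, against 0.50, 0.08, 0.61 and -0.11 on the control arrays. Control replicate 4 lay inside the sorafenib range. Its log2 fold change was -0.63 ± 0.25, or 0.645-fold, with a limma p of 0.0327 and an adjusted p of 0.656, and the other probes of the gene gave -0.68 and -0.62. The probe with -0.68 was above background on only 4 arrays. With the mean of the gene's probes the log2 fold change was -0.64 (limma p 0.0644).

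Without both sorafenib replicates 2 and 3, the arrays low in neuronal markers, the log2 fold change of robo3 was -0.29 with a limma p of 0.309. They were also the lowest sorafenib arrays for robo3, so leaving both out shrinks the difference by construction. The log2 fold change of robo3 was -0.61 within slide 1 and -0.65 within slide 2. Left out singly, sorafenib replicate 2 (-0.55) or 3 (-0.49) or control replicate 1 (-0.55) or 3 (-0.52) took the limma p above 0.05. For robo2, the receptor that guides retinal axons in zebrafish, the log2 fold change was -0.13 ± 0.32, and it was 0.39 without both arrays.

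Of the netrins, ntn1a and ntn1b were tested. The level of ntn1a was 0.27, 0.28, 0.21 and 0.37 on the sorafenib arrays, against 0.41, 0.34, -0.03 and 0.18 on the control arrays. These values were close together on all arrays, and the log2 fold change of 0.06 ± 0.16 had an interval of -0.30 to 0.42 and was 0.09 without both sorafenib replicates 2 and 3. For ntn1b it was -0.29 ± 0.40, from a probe above background on 7 arrays, against 0.40 without both of those arrays, and for unc50, outside the families, it was 0.26 ± 0.26.

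The 9 genes below the filter were efna4, efnb1, efnb2a, ntn2, ntng2a, sema3ga, sema3h, slit1a and unc5b. Of these, 6 were above background on 0 arrays, so no difference was detectable for them. The other efnb2 copy, efnb2a, was above background on 2 sorafenib arrays and 1 control array (exact permutation p 0.943, two-sided, n = 4 each). For efnb1 and ntn2, each above background on 1 sorafenib and 2 control arrays, the exact permutation p was 0.286 and 0.257. Among the genes picked for a vascular or cardiac role, sema3c, plxna2, robo1, robo4 and ntn4 had no named probe and were not analysed here.

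Zebrafish carry 2 copies of many of these genes, and both were tested in 6 pairs. In 5 of the 6 the log2 fold change of copy b was below that of copy a. The difference, a minus b, was 0.28 for nrp2 and 0.65 for sema3a, each with an exact permutation p of 0.0286 (two-sided, n = 4 each), the smallest that 4 against 4 arrays can give, and 0.0857 after adjustment over the 6 pairs. It was 0.91 for nrp1 (exact p 0.0571), 0.74 for epha4 (exact p 0.2), 0.35 for ntn1 (exact p 0.457) and -0.26 for efna1 (exact p 0.629). No pair passed after adjustment, and these tests were added after the values had been seen. The sema3a copies and nrp1b were dim. With normexp and the 75th percentile, sema3aa and sema3ab had log2 fold changes of 0.10 and 0.04, and nrp1a and nrp1b -0.05 and -0.16. Those of nrp2a and nrp2b were -0.16 and -0.36. On the authors' series table both sema3a copies had the same fitted value, as values that are equal on every array would give. That table therefore cannot show whether either sema3a copy differed between the groups.

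**Figure D3:**
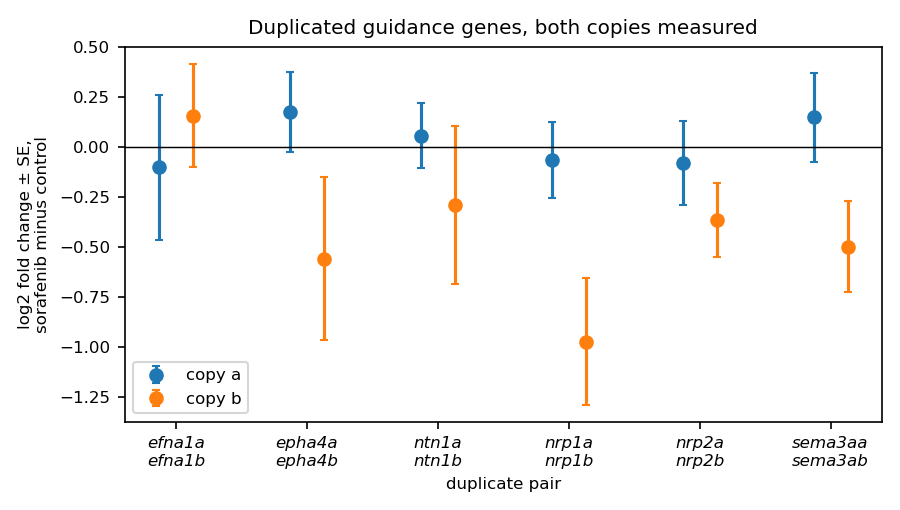
Log2 fold change of sorafenib over control hearts for both copies of 6 duplicated genes, as estimates ± SE from limma. Copy b lies below copy a in every pair except efna1. The SE bars of the copies overlap for nrp2, ntn1 and efna1, and are apart for nrp1, sema3a and epha4. Bars that are apart are not a test of the difference between copies.

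Several guidance genes varied with replicates 2 and 3 of the sorafenib group. These arrays were the lowest of the 4 sorafenib arrays for 17 of the 38 genes, or 44.7%, beside 21.3% of all units, and the highest for 3 genes, or 7.89%, beside 23.9%. The 17 genes comprised both Robo receptors, all 3 tested Slits, epha4a, epha4b, epha7, ephb4a, efna3b, efnb3b, ntn1b, plxna4, sema3aa, sema3ab, sema6a and sema6d. The 3 high ones were nrp1b, plxnb2a.3 and plxnd1. Only the order of the arrays was counted, and some gaps were small. For sema3ab, sorafenib replicate 3 was at -4.161 and replicate 4 at -4.153. For ephb4a, sorafenib replicate 2 was at -0.966 and replicate 1 at -0.950.

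The same arrays were the lowest in neuronal markers, with 33 of 34 tested markers negative in log2 fold change and 6 lower at an unadjusted limma p under 0.05, beside 3.28% of all units. They were also lowest in markers of glia, neural progenitors and neural crest (18 of 27 tested, -0.39 and -0.59, against 0.06 to 0.27 on the control arrays). They were highest in heart muscle markers, at 0.57 and 0.72, against -0.60 to 0.14 on the control arrays, and in markers of liver, yolk and gut, at 0.58 and 1.65, against -0.96 to 0.54. The part of these markers in the values of the guidance genes was not tested. Without both arrays, the median log2 fold change of the 38 genes was 0.04. These arrays were the lowest sorafenib arrays for 17 genes and the highest for 3, so leaving them out pushes the median up by construction. At an unadjusted limma p under 0.05, 2 genes were lower and 0 higher without them, beside 1.64% and 1.76% of all units. The lower genes were nrp1b and plxnd1, for which the left-out arrays were the highest of the sorafenib group.

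**Figure D4:**
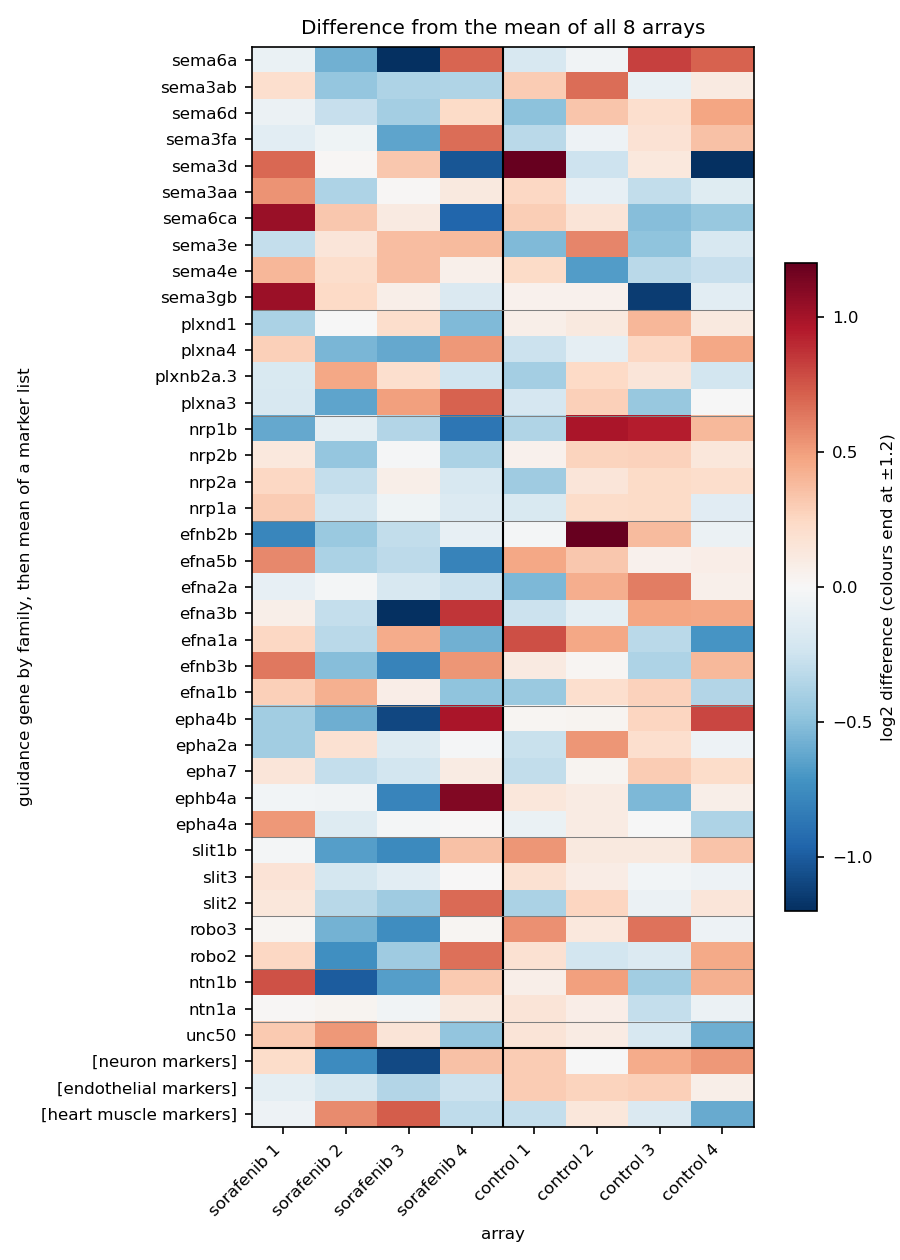
Level of the 38 tested guidance genes on each array relative to the mean of all 8 arrays (log2), with sorafenib arrays left and control arrays right. For 17 genes, among them the tested Slit and Robo genes, the columns of sorafenib replicates 2 and 3 are lower than those of sorafenib replicates 1 and 4.

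Other guidance genes were taken from lists chosen for their place in these pathways. Of 30 further receptors, co-receptors and ligands 15 were tested, 9 negative and 6 positive with a median of -0.05, and 0 passed an unadjusted limma p under 0.05 in either direction. The smallest p in that list was that of met, the HGF receptor, which pairs with B-type plexins, with a log2 fold change of 0.58 (limma p 0.0701). The adhesion receptor gene cntn1b had -0.60, the proteoglycan genes sdc4 and gpc1a had 0.23 and -0.29, and flt4, the lymphatic VEGF receptor, had -0.32.

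Of 82 intracellular transducers of guidance signals 39 were tested, 26 negative and 13 positive, with a median of -0.13. At an unadjusted limma p under 0.05, 4 of the 39 were lower and 0 higher, beside 3.28% and 4.16% of all units, and 0 passed adjustment. The level of dpysl3, a collapsin response mediator protein that links semaphorin receptors to the cytoskeleton, was 3.56, 2.94, 2.80 and 3.41 on the sorafenib arrays, against 3.91, 3.73, 4.25 and 3.77 on the control arrays. All sorafenib values were below all control values, as for 1.9% of all units. The log2 fold change was -0.74 ± 0.22 with a limma p of 0.00854, the smallest in the list, and an adjusted p of 0.546. Without both sorafenib replicates 2 and 3 it was -0.43 (limma p 0.104).

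The related dpysl2b had a log2 fold change of -0.58 (limma p 0.0406). It was -0.80 for evlb, an actin regulator of the Ena/VASP family (limma p 0.0394), while its copy evla had -0.36 (limma p 0.057). In dpysl3, dpysl2b and evlb alike, sorafenib replicates 2 and 3 were the lowest of the 8 arrays, the same arrays that were lowest in neuronal markers. Without them the log2 fold changes of dpysl2b and evlb were -0.20 and -0.27 (limma p 0.39 and 0.362). Leaving out the lowest arrays shrinks these differences, and that of dpysl3, by construction. These genes are also expressed in neurons, and the part of the neuronal markers in their values was not tested.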

How the data were processed

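The deposited scanner files give a linear intensity per spot, from which the scanning software had subtracted background, and a detection flag, without normalisation between arrays. Per the file headers, Feature Extraction 10.1.1.1 was used, while the submitters' processing notes name version 8.0. A deposited series table gives log2 values of 21383 probes. All 8 columns correlated most with their own array (r 0.975 to 0.985), column medians were 7.20 to 7.22, the lowest value was 5.66 on every array, and its centring is not given in the sources used here; it was used as an alternative.

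Control spots and 5 to 15 outlier spots per array were left out, and 0 spots were saturated. Spots of a probe were averaged, and log2 signal minus the array's 75th percentile (85.1 to 154.9 before log) was used. Of 43603 probes, 15163 (34.78%) were named through RefSeq accessions in a RefSeq table of assembly GRCz12tu, used for names only; the array was designed on an older build, so no positions are given. The brightest probe stood for a gene, and other probes are described above for sema6ca, nrp1b, nrp2b and robo3. For the remaining genes, other probes above background on all 8 arrays had these log2 differences. They were 0.12 for efna1b, 0.30 for epha4a, -0.32 and -0.18 for epha7 and -0.13 for nrp2a. For ntn1a, robo2 and unc50 they were 0.19, -0.08 and -0.0038. Other probes of the remaining genes that were above background on fewer arrays are not given.

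Sorafenib was compared with control in limma 3.58.1 (lmFit and eBayes, R 4.3.3), over units above background on at least 4 of 8 arrays, with Benjamini-Hochberg adjustment over all of them. The code was tested on simulated data. Genes below the filter and differences between gene copies had exact permutation tests (scipy 1.17.1). The number of arrays limits the precision. Genes were named where the unadjusted p was under 0.05 or the groups did not overlap, where they had a known vascular or cardiac role, as members of a pair, or as the 2 of a family with the smallest p. Up to 5 were named per further list (1 gene of the transducer list is not reported here), and the remaining tested genes were added for completeness after their values were seen. The genes and lists were chosen with earlier results of these data known.

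Alternatives were other scalings, normexp with offset 50, other filters, the mean of a gene's probes, the series table, slide or replicate number as a block, array weights and fewer arrays. The files used here lack the mean signal, so normexp used the median signal, and spot backgrounds over 10 times the array median were set to that median, a step chosen after seeing the data, as were the fits within slides and normexp with quantile normalisation.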

Additional observations from a re-analysis of the deposited data

Results flagged for a closer look

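In 76 groups of 4 arrays (38 genes in each group), 5 held an array whose gap to its nearest neighbour was above the Dixon critical value of 0.829 of the group's range; chance gives about 1 in 20 groups. The array was sorafenib replicate 1 for sema3ab, at -3.59 with the other sorafenib arrays between -4.26 and -4.15. It was control replicate 3 for ephb4a, at -1.46 with the other control arrays between -0.85 and -0.79. It was control replicate 3 for plxnd1 as well, at 4.47 with the others between 4.15 and 4.2, and for sema3gb, at -5.02 with the others between -4.00 and -3.83. It was control replicate 1 for nrp2a, at 1.49 with the others between 2.06 and 2.14. Of the 4 control arrays, replicate 3 was thus apart in 3 genes, high for one and low for the others.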

How the results depend on the processing

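The count of guidance genes past the adjusted p was 0 under all 22 alternatives. The count of genes lower at an unadjusted limma p under 0.05 was 3 in the main setting, beside 3.28% of all units. With array weights it was 8, beside 11.3% of all units, and sema6a, epha4b, slit1b, sema3ab and nrp2b were added. With the replicate block it was 5, beside 6.74%, and slit1b and sema3ab were added. Within slide 1 and within slide 2 it was 1, beside 1.48% and 1.49%. It ranged from 1 to 6 when each array was left out in turn. It was 1 without sorafenib replicate 2 (beside 2.26% of all units), 5 without sorafenib replicate 1 (beside 5.6%) and 6 without sorafenib replicate 4 (beside 8.6%). The count of higher genes was 1 in the main setting, beside 4.16% of all units. It was 0 without both sorafenib replicates 2 and 3 (beside 1.76%) and within slide 1 (beside 1.41%). With each array left out it was 0 to 1, beside 2.36% to 9.4% of all units. It was 0 without sorafenib replicate 1, 2 or 3 or control replicate 3 or 4. It was 1 without control replicate 2, where the gene was sema3e. The median log2 fold change was -0.24 with array weights, -0.23 to -0.01 with each array left out and -0.09 with the replicate block. With normexp and the 75th percentile, 19 of 38 genes were negative, beside 39.8% of all units. The cause of these shifts was not tested, beyond the fewer arrays in some fits.

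Same-numbered sorafenib and control arrays had correlations of 0.27, 0.42, 0.04 and 0.70 in their deviations from the group means. For sorafenib replicates 1, 2 and 4 the same-numbered control array correlated best, while sorafenib replicate 3 correlated best with control replicate 1 (0.23). These values do not settle whether the numbers pair the samples, so the replicate block was used as an alternative only. For single named genes, 545 of the values under alternatives kept their direction and side of the threshold or moved within the spread of the arrays, 29 lost an unadjusted p under 0.05, 25 gained one, 11 moved further and 0 reversed a called direction. Only nrp1b, efnb2b, robo3 and sema4e had such a p to lose. They lost it under 3, 9, 8 and 9 of 22 alternatives. For sema3ab the normexp value was 0.04 and for efna5b 0.06. Dim signals limit genes such as nrp1b, sema3ab and plxna3.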
